A study of Mus musculus with 4 samples.

Results

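The mitochondrial ribosomal protein genes are the nuclear genes for the proteins of the ribosome inside mitochondria. Members were the genes whose symbol, matched by Ensembl identifier, starts with Mrpl or Mrps followed by a digit, without names that hold a dash or ps, and each was read together with the gene that overlaps it on the opposite strand. The rule gave 78 of the 50600 genes in the tables, all protein-coding, with 49 named for the large subunit (Mrpl) and 29 for the small subunit (Mrps). They lay on 17 chromosomes, with 11 on chromosome 11 and 8 on chromosome 17, and 5 pseudogenes were left out. RNA was measured in 4 libraries of primary mouse cells of strain C57BL/6NJ that carry the label T-helper 2 cell, a CD4 T cell lineage known for interleukin 4. All 4 share 1 donor identifier, and whether they came from separate mice is not stated, so p-values measure only the spread between these samples. The age is labelled unknown, and no treatment or time is labelled. The file headers name a time course of Th1 and Th2 differentiation and place the samples at its 0 hour point.

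The mitochondrial ribosome reads the few mRNAs of the mitochondrial genome, which encode core subunits of the respiratory chain and of ATP synthase. Its rRNAs come from that same genome, while every one of its proteins is encoded in the nucleus, made in the cytosol and imported. Many of the proteins descend from bacterial ribosomal proteins and others are specific to mitochondria. In T cells, mitochondrial translation is known to support the growth of respiratory capacity that follows activation.

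NRF1 and factors of the ETS family are known to act at promoters of many nuclear genes for mitochondrial proteins. RefSeq promoter windows on build GRCm38.p6, from 250 bases before to 50 after each start, were matched by symbol for 69 of the 78 members. The letters CCGGAAG, a core of ETS sites, occurred on either strand in windows of 26 members (37.7%), against 9.93% of all 27025 symbols. TGCGCA, letters of NRF1 sites, occurred in 21 members (30.4%), against 8.79% of all symbols. AAGATGGCG, for YY1, occurred in 8 (11.6%), against 1.64%, and GGGCGGG, for SP factors, in 29 (42.0%), against 27.9%. A match is only an occurrence of these letters and was not read as a bound site. The windows of 5 members are shown, cut back to bases outside annotated exons, with matches in capitals. They are Mrpl58 and Mrps18a, which held both ETS and NRF1 letters, Mrpl45 with NRF1 letters at 2 places, Mrpl9, whose start lies head to head with another gene, and Mrps25, the member with the most counts and none of the 4 matches. Mrpl58 is given at chr11:115403502-115403751 (plus strand), Mrps18a at chr17:46110754-46110985 (plus), Mrpl45 at chr11:97315466-97315715 (plus), Mrpl9 at chr3:94443086-94443317 (plus) and Mrps25 at chr6:92184034-92184273 (minus), each 5′ to 3′ toward the gene.
Mrpl58: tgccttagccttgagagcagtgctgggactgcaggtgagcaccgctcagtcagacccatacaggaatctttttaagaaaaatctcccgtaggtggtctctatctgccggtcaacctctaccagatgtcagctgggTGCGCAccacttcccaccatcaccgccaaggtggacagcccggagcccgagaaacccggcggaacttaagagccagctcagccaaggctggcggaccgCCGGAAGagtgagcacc
Mrps18a: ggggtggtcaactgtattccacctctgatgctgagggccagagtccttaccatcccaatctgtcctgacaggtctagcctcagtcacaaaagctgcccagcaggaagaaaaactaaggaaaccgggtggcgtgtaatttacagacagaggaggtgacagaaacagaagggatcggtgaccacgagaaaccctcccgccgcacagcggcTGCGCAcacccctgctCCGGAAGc
Mrpl45: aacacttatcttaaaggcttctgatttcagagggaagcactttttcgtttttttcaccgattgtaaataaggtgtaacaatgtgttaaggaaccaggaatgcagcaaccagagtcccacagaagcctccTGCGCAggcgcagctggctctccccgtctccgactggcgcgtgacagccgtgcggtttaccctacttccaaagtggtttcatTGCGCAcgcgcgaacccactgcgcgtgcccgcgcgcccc
Mrpl9: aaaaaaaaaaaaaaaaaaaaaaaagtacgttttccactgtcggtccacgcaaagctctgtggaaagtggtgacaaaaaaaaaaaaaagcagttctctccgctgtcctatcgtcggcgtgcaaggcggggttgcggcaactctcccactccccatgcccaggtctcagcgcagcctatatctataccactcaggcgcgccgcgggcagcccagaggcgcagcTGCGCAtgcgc
Mrps25: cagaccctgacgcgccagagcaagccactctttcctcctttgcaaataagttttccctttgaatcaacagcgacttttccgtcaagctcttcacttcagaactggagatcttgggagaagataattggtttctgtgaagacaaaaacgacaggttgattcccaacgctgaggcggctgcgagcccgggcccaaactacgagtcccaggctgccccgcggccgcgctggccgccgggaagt
In windows cut in this way, matches within annotated exons are not seen. Over whole windows, ETS letters occurred in 10 of 23 matched members with an exon overlap on the opposite strand and in 16 of 46 without one, and NRF1 letters in 6 of 23 and 15 of 46.

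The libraries held 2131288, 2351916, 1923157 and 1452053 counts for replicates 1 to 4. A gene at 0 counts could still stand at up to 3 counts, which was 1.28 to 2.07 CPM (a count relative to the sum of its library), and such limits and all intervals cover counting error only. A single ribosomal RNA locus, CT010467.1, took 3.47% to 16.8% of the counts and sets part of every CPM. Of 6 T cell markers none was at 0 and their means ran from 10.4 to 66.0 TPM (the count scaled by exon length and then by library). Of the 6 Th2 markers Il5 and Il13 had 0 counts and the highest mean was 7.96 TPM (Il4), while both Th1 and both Th17 markers had 0. Some markers of other lineages were high on their annotated strand, with Foxp3 at 199 TPM, Csf1r at 107 TPM and Cd79a at 39.0 TPM. Foxp3 and Csf1r overlap exons of a gene on the opposite strand, and Ms4a1 and Lyz2 had 0 counts. The part of such cells in the results was not tested. The deposited values count the fragments that fell on a gene's annotated strand, and they were not read as transcript levels here. The counting setting took the first read of a pair to lie on the strand of the gene. In libraries of the reverse orientation, the counts given for a gene would instead come from transcripts of the other strand that cross its exons. For an overlapped member these could be transcripts of its opposite gene, and the reverse. Which orientation these libraries have is not given in the sources used here and was not tested. In bulk samples, fewer cells of a type and less RNA per cell cannot be told apart.

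The members as a group were measured at low counts, and a few of them held nearly all of the signal. Their summed level was 3992 ± 440 CPM (SD, n = 4). Mrps25, a small subunit protein specific to mitochondria, made up 56.2% ± 1.77 of the member counts (SD, n = 4). The 9 members at or above a mean of 30 TPM made up 92.5% ± 0.887. At the other end, 18 members had 10 or fewer counts over all 4 libraries, 7 had 3 or fewer, and Mrpl53 had none. Of the 21764 protein-coding genes, 12858 had 10 or fewer counts and 9709 had none. A mean of 1 TPM or more, here called detected, was reached by 53 of 78 members (67.9%), against 34.0% of the 21764 protein-coding genes. In each single library 44 to 61 members reached 1 TPM, and 31 reached it in all 4. A count was present in all 4 libraries for 48 of the 78.

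**Figure D1:**
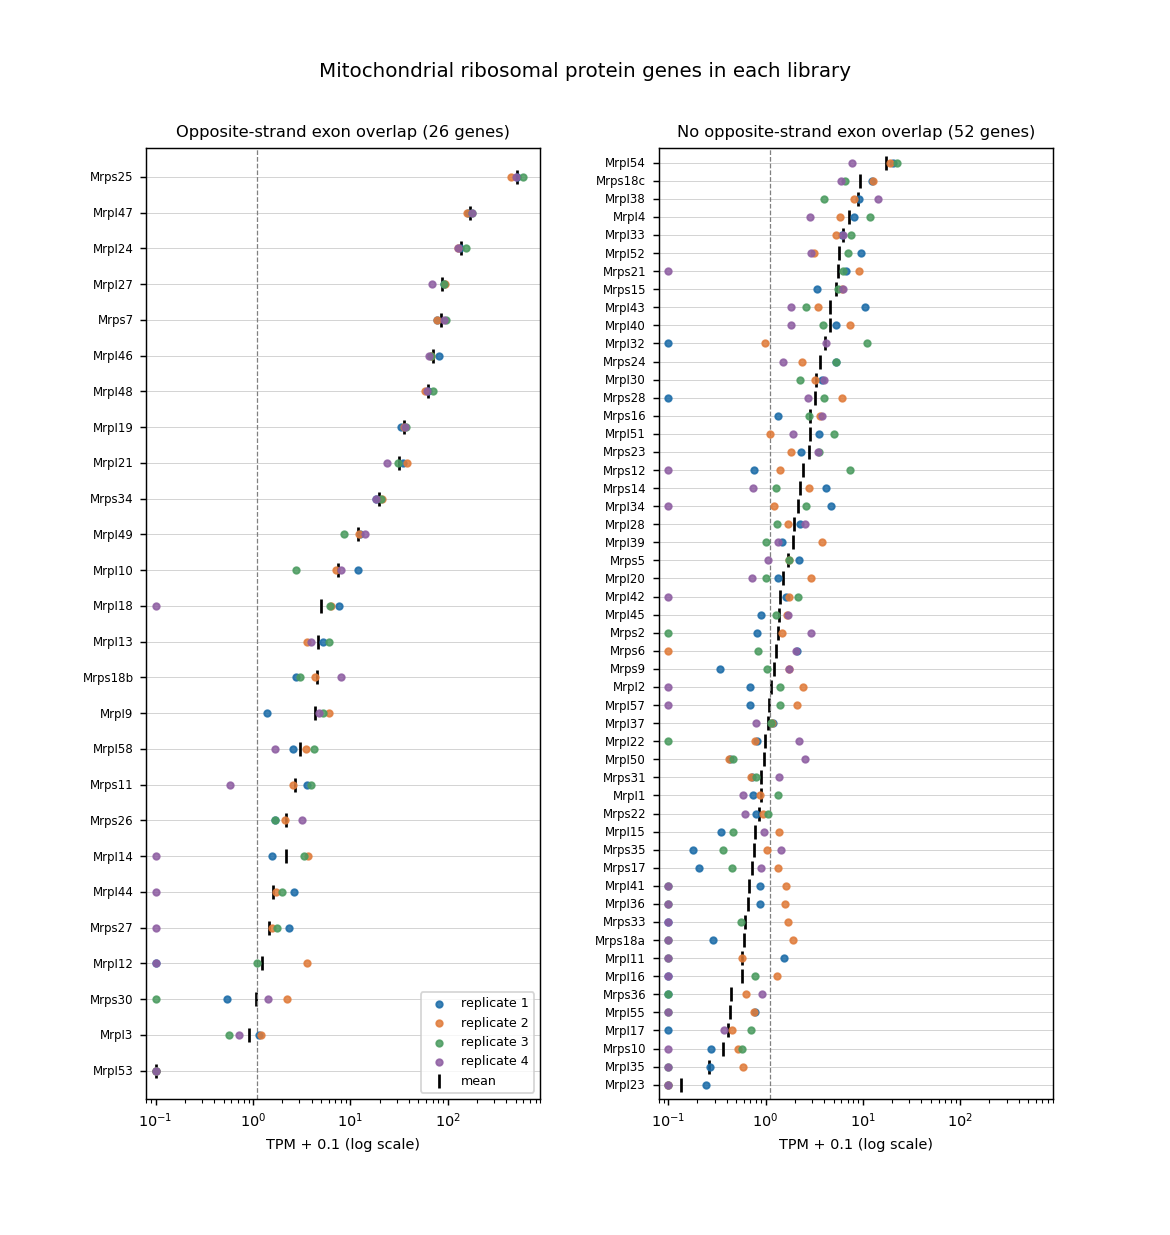
Level of each of the 78 members in each library as TPM + 0.1 on a log scale, with members whose exons overlap an opposite-strand gene on the left (26 genes) and the others on the right (52 genes). Points are replicates 1 to 4, black ticks are means and the dashed line marks 1 TPM. The 9 highest members all stand on the left, and the highest on the right is Mrpl54 at a mean of 17.2 TPM.

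Members that overlap a gene on the opposite strand stood above the others. Exons of 26 members overlap, by at least 1 base, an exon of a gene on the other strand, and the other 52 have no such overlap. Overlapped members summed to 3811 ± 435 CPM and the other members to 182 ± 16.5 CPM (SD, n = 4), so that 33.3% of the list by number held 95.4% ± 0.568 of its counts. Over all 50600 genes, the 16.2% with such an overlap held 88.6% ± 1.06 of all counts. Among overlapped members 23 of 26 (88.5%) were detected, against 30 of 52 (57.7%) of the others. Among all protein-coding genes the shares were 57.9% of 4801 overlapped genes and 27.2% of 16963 others. The median member level was 2.60 ± 0.08 with overlap and 0.29 ± 0.37 without, on the log2(TPM + 0.1) scale. Within the 4 libraries the difference was 2.82, 1.90, 2.13 and 2.38, with a mean of 2.31 ± 0.40 (SD, n = 4). The same difference over all protein-coding genes was 4.21 ± 0.20, where the median gene without overlap had 0 counts. The median of mean levels was 1.26 TPM for members without overlap, against 0 TPM for all protein-coding genes without overlap. With overlap it was 4.76 TPM for members and 1.84 TPM for protein-coding genes.

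**Figure D2:**
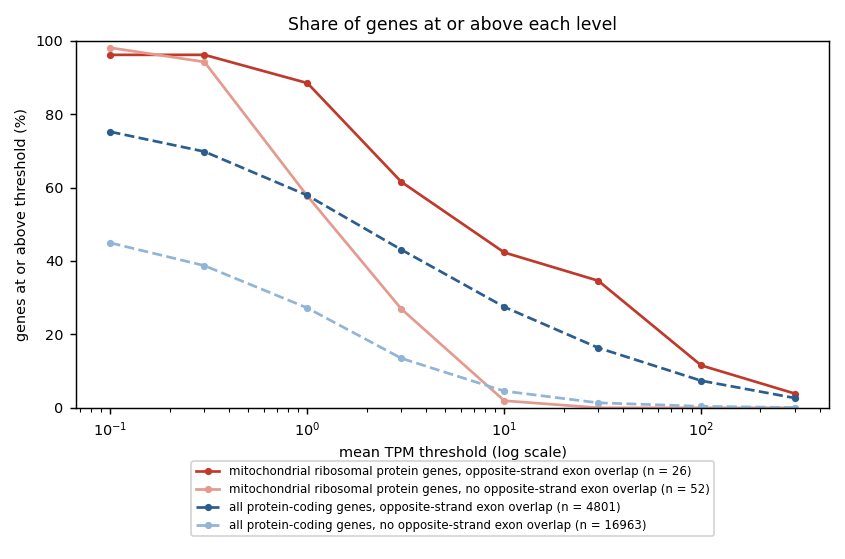
Share of genes (percent, vertical axis) at or above each mean TPM (log scale, horizontal axis), for mitochondrial ribosomal protein genes in red and all protein-coding genes in blue, with darker lines for genes with an opposite-strand exon overlap. At 10 TPM stand 42.3% of the overlapped members and 1.92% of the others, against 27.5% and 4.55% of all protein-coding genes.

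The difference between large and small subunit genes was about as large as its spread between libraries. The median level was 1.04 ± 0.40 for the 49 large subunit members and 0.75 ± 0.18 for the 29 small subunit members on the log2(TPM + 0.1) scale (SD, n = 4). Their difference averaged 0.29 ± 0.28 and was below 0 in replicate 1 (-0.07). Among members without overlap it was 0.07 ± 0.48. Detected were 33 of 49 large and 20 of 29 small subunit members. Subunits were taken from the names, although the proteins of Mrps30 and Mrps18a are known to sit in the large subunit.

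The highest small subunit members were Mrps25, Mrps7, Mrps34 and Mrps18c. Mrps25 (ENSMUSG00000014551.8, chr6:92169525-92184033 on mm10, minus strand) had 4932, 4418, 5065 and 3141 counts in replicates 1 to 4, a mean of 516 ± 57.5 TPM (SD, n = 4). Replicate 3 was the highest and replicate 2 the lowest on the TPM scale, at 590 and 452 TPM. Mrps7, whose protein belongs to the core of the small subunit in bacteria too, had 232, 239, 261 and 182 counts and a mean of 85.9 ± 9.61 TPM. Mrps34, a mitochondria-specific small subunit protein, had 54, 64, 55 and 36 counts and 19.4 ± 1.43 TPM. These 3 overlap opposite-strand exons, and Mrps18c does not. Mrps18c, one of 3 mouse homologues of a single bacterial protein, had 19, 20, 9 and 6 counts and 9.26 ± 3.64 TPM, with higher values in replicates 1 and 2 than in 3 and 4. Its homologue Mrps18b had 8, 13, 8 and 16 counts (4.45 ± 2.45 TPM), and Mrps18a had 1, 10, 0 and 0 counts (0.503 ± 0.885 TPM). The level of Mrps18a was thus set by replicate 2, and without it the mean was 0.0629 TPM.

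Among large subunit members the highest were Mrpl47, Mrpl24, Mrpl27 and Mrpl46. Mrpl47, homologous to a bacterial protein near the exit of the peptide tunnel, had 1017, 1038, 1026 and 748 counts and 168 ± 10.5 TPM. Mrpl24, an early-binding protein in bacterial assembly, had 432, 426, 450 and 279 counts and 136 ± 11.8 TPM. Mrpl27, whose bacterial homologue reaches toward the peptidyl transferase centre, had 131, 136, 119 and 65 counts and 86.7 ± 11.9 TPM. Replicate 4 stood apart for Mrpl27, at 68.8 TPM against 92.6 to 93.0 TPM in the other 3. Mrpl46, a mitochondria-specific protein, had 167, 140, 125 and 87 counts and 70.1 ± 8.13 TPM. All 4 have opposite-strand exon overlaps, and replicate 4, the smallest library, had the fewest counts for each.

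Other members taken for their known role ranged from 0.967 to 7.39 TPM. Mrps12 encodes the homologue of the bacterial decoding-site protein and had 1, 2, 10 and 0 counts. Its mean of 2.33 ± 3.40 TPM rested on replicate 3 and was 0.655 TPM without it. Mrpl10 and Mrpl12 form the stalk that recruits translation factors. Mrpl10 had 29, 18, 6 and 13 counts (7.39 ± 3.74 TPM). Mrpl12 had 0, 8, 2 and 0 counts (1.13 ± 1.66 TPM), and 0.333 TPM without replicate 2. Mrpl44, of the ribonuclease III fold, had 6, 4, 4 and 0 counts (1.51 ± 1.08 TPM), and Mrpl45, known to anchor the ribosome at the inner membrane, had 3, 6, 4 and 4 (1.29 ± 0.374 TPM). Mrps30 had 1, 5, 0 and 2 counts (0.967 ± 0.941 TPM), and 0.583 TPM without replicate 2. Mrpl58, a peptidyl-tRNA hydrolase built into the large subunit that rescues stalled ribosomes, had 12, 17, 18 and 5 counts (2.91 ± 1.12 TPM). The SD of Mrps12, Mrpl12 and Mrps18a exceeded the mean, and the order of these low members is not resolved.

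Without an opposite-strand exon overlap, the highest members were Mrpl54, Mrps18c, Mrpl38 and Mrpl4. Mrpl54 (chr10:81264713-81266934, minus strand), a mitochondria-specific protein, had 24, 23, 24 and 6 counts and 17.2 ± 6.59 TPM, with replicate 4 lowest. Apba3 on the opposite strand lies 26 bases away. Mrpl38 had 33, 30, 13 and 35 counts and 8.79 ± 4.29 TPM, lowest in replicate 3 and highest in replicate 4. Mrpl4, homologous to a bacterial protein of the tunnel wall, had 30, 22, 40 and 7 counts and 7.04 ± 3.77 TPM, and its nearest opposite-strand gene lies 19468 bases away. Mrpl38 and Mrpl4 ran in opposite orders in replicates 3 and 4. Of the 52 members without exon overlap, 35 lie within 5 kb of an opposite-strand gene, and 8 of the 52 overlap the body of one outside its exons.

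For the 26 overlapped members, count density (counts per kb of exon) was set beside that of the opposite gene, the gene on the other strand with the largest exon overlap. These are 25 distinct pairs, since Mrpl46 and Mrps11 are each other's opposite gene and are counted once from either side. Every count and ratio here rests on the strand setting being right for the libraries, which was not tested. The opposite gene was denser in all 4 libraries in 15 of 26 pairs (57.7%), and 45.2% of the 4801 protein-coding genes with an opposite gene showed the same. The member was denser in all 4 in 8 of 26 pairs (30.8%), against 22.8% of those genes. The remaining 3 pairs were not one-sided. All 8 opposite genes that are not protein-coding were denser than their member. Of the 18 protein-coding opposite genes 7 were denser than the member, and 8 were less dense. The shares over the 4801 genes were not split by type of opposite gene. Whether these counts by type differ from the general rate was therefore not tested. An exact two-sided permutation that flips the sign of each library's log2 ratio was as extreme in 2 of 16 sign patterns for 23 pairs, the smallest share that 4 libraries allow, so no pair could pass a threshold of 0.05.

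**Figure D3:**
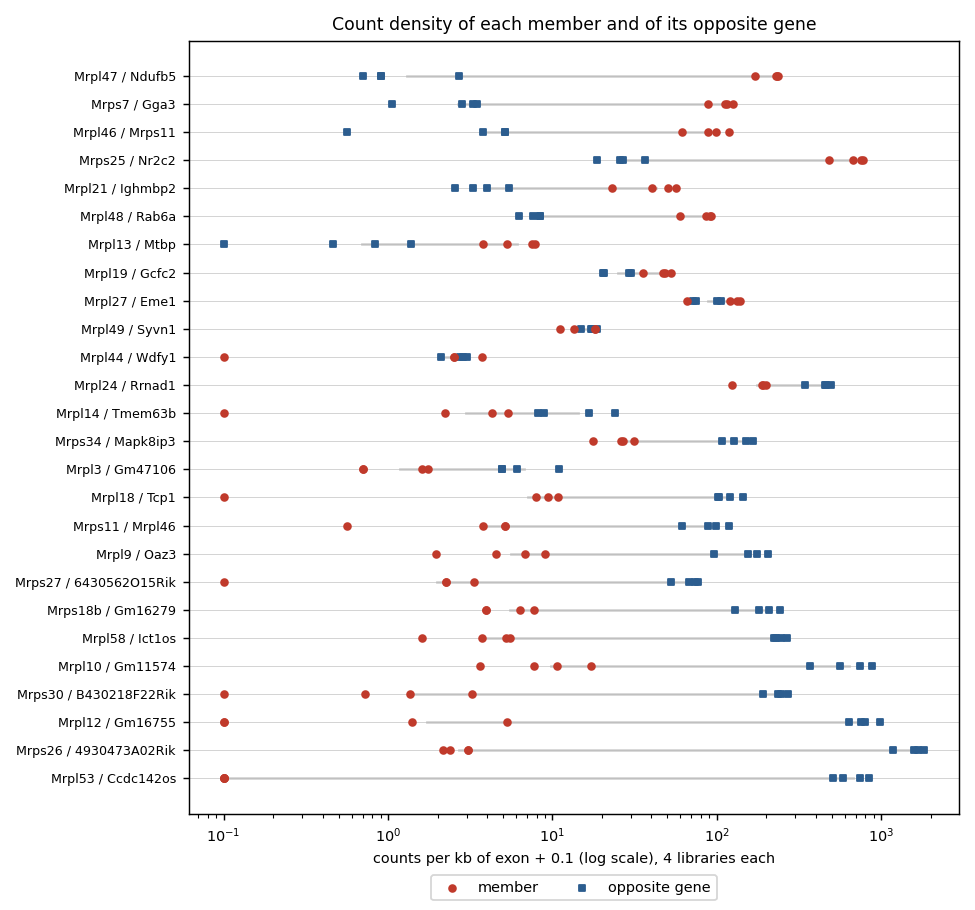
Count density (counts per kb of exon + 0.1, log scale) of each of the 26 overlapped members (red circles) and of its opposite gene (blue squares), with 1 point per library and a grey line between the means. Pairs run down the page from those in which the member was denser to those in which the opposite gene was. The member was denser in all 4 libraries in 8 pairs and the opposite gene in 15.

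In the 8 pairs where the member was denser, both genes are protein-coding. Mrpl47 had 1017, 1038, 1026 and 748 counts, against 3, 4, 13 and 4 for Ndufb5, a complex I subunit gene whose first exons overlap it by 616 bases. Its density was 180 times that of Ndufb5 (95% exact Clopper-Pearson interval 121 to 282). Mrpl47 also meets Actl6a, a chromatin remodelling subunit gene, at its other end, and was 12.7 times denser (11.2 to 14.5). Mrps7 likewise lies between a pair of opposite genes. It was 43.0 times denser (33.4 to 56.4) than Gga3, a Golgi adaptor gene with 20, 17, 21 and 6 counts, and 10.1 times denser (8.09 to 12.7) than Mif4gd, with 23, 21, 28 and 16 counts. In both loci the count density given for the member was above that given for its neighbours on either side in every library. The strand setting on which this rests was not tested.

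Mrps25 overlaps Nr2c2, a nuclear receptor gene, tail to tail by 4590 bases, which is 69.8% of the exon bases of Mrps25. The counts were 4932, 4418, 5065 and 3141 for Mrps25, against 383, 400, 541 and 276 for Nr2c2, a ratio of densities of 24.9 (23.7 to 26.2). Both genes had their highest count in replicate 3. Mrpl46 and Mrps11 are both members and lie head to head with 173 shared bases. Mrpl46 had 167, 140, 125 and 87 counts, against 11, 8, 11 and 1 for Mrps11, and was 25.7 times denser (17.9 to 38.2). The counts given for the small subunit gene were thus below those given for the large subunit gene beside it in every library. Which of these genes the fragments came from rests on the untested strand setting. Mrpl21 exceeded the helicase gene Ighmbp2 11.4 times (8.66 to 15.2), with 101, 113, 81 and 46 against 22, 16, 13 and 10 counts. Mrpl48 exceeded Rab6a, a Golgi GTPase gene, 10.8 times (8.96 to 13.2), with 738, 701, 750 and 483 against 31, 23, 28 and 31 counts. Mrpl13 exceeded Mtbp 10.1 times (5.76 to 19.3), with 59, 41, 61 and 29 against 2, 7, 4 and 0 counts. Mrpl19 was closest to its partner Gcfc2, at 1.84 times (1.67 to 2.02) over a shared 1962 bases. No library had the partner denser in any of these pairs.

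**Figure D4:**
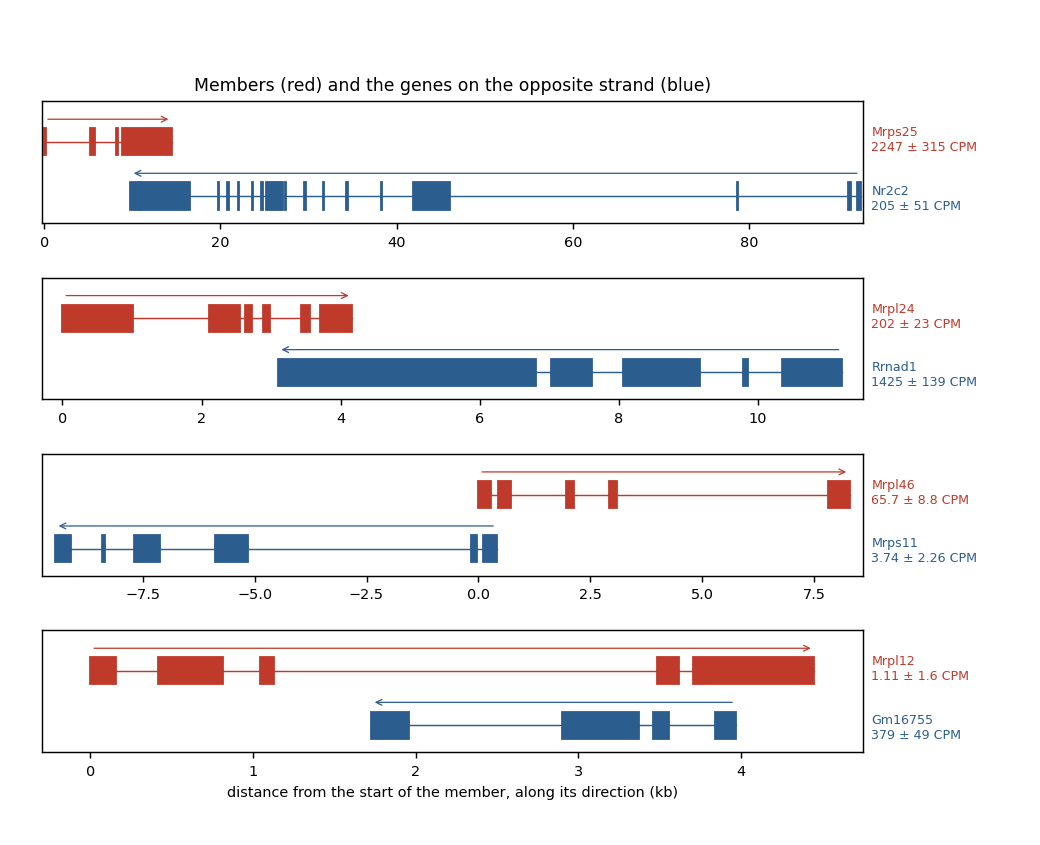
Exon maps of 4 pairs, drawn to scale as distance in kb from the start of the member along its direction, with the member in red and its opposite gene in blue and the mean ± SD in CPM over 4 libraries at the right. Mrps25 (2247 ± 315 CPM) and Mrpl46 exceed their opposite genes, while Mrpl24 and Mrpl12 lie below theirs.

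The opposite genes with the most counts were Rrnad1, 4930473A02Rik, Mapk8ip3 and Gm16755. Mrpl24 had 432, 426, 450 and 279 counts, against 3133, 2864, 2911 and 2177 for Rrnad1 (1425 ± 139 CPM, SD, n = 4), which overlaps it tail to tail by 594 bases and was 2.48 times denser (2.36 to 2.62). Rrnad1 also overlaps Isg20l2 by 298 bases. Mrps26, a mitochondria-specific small subunit gene, had 10, 13, 9 and 13 counts, against 2575, 2370, 2220 and 1661 for 4930473A02Rik (1129 ± 85.3 CPM), a non-coding gene that shares 8 bases with it head to head. The opposite gene was 607 times denser (453 to 832), and it also overlaps Ptpra by 288 bases. Mrps34 lies inside Mapk8ip3, a scaffold gene of JNK signalling, with 1309 shared exon bases. Mrps34 had 54, 64, 55 and 36 counts, against 2410, 2180, 1860 and 1558 for Mapk8ip3, which was 5.43 times denser (4.73 to 6.26). Over exon bases not shared with a gene of the same strand, 1301 of the 2064 of Mrps34, it was 3.83 times denser (3.34 to 4.42). Mapk8ip3 also overlaps Nme3 by 577 bases. Mrpl12 had 0, 8, 2 and 0 counts, against 912, 746, 703 and 591 for Gm16755, a non-coding gene within its span, at 485 times the density (263 to 1012). In these 4 pairs every library had the opposite gene above the member.

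Mrpl53 was at 0 in every library, against 916, 809, 635 and 549 counts for Ccdc142os, which shares 15 bases with it. Ccdc142os also overlaps Gm42688 by 603 bases and Ccdc142 by 287. Of the 790 exon bases of Mrpl53, 695 also belong to Gm42688 on its own strand, and with the counting settings in the file headers a fragment in exons shared by same-strand genes is given to neither. Taking 3 counts over the group on the other 95 bases, Ccdc142os was at least 85.1-fold higher in density. For 8 members in all, exons are shared with a gene of the same strand, with 763 bases shared by Mrps34 and Nme3. The other pairs with a denser opposite gene ranged from Mrpl14, with Tmem63b at 4.92 times (2.71 to 9.97), to Mrps30, with B430218F22Rik at 188 times (95.1 to 436). Between these stood Mrpl3 (6.07 times), Mrpl18 opposite to the chaperonin gene Tcp1 (16.8), Mrps11 (25.7), Mrpl9 opposite to Oaz3 (28.9), Mrps18b (35.2), Mrps27 (35.7), Mrpl58 opposite to Ict1os (61.6) and Mrpl10 opposite to Gm11574 (65.9). Mrpl9, for example, had 5, 24, 18 and 12 counts, against 884, 672, 763 and 414 for Oaz3, although Oaz3 also shares 2255 exon bases with Tdrkh. The opposite genes of Mrpl3, Mrpl10, Mrpl14, Mrpl18 and Mrps18b also overlap exons of other genes on the strand of the member. The 3 pairs without a constant side were Mrpl27 with Eme1 (exact p = 0.25), Mrpl49 with Syvn1 (exact p = 0.375) and Mrpl44 with Wdfy1 (exact p = 0.875), each by the same permutation.

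The way a pair is arranged varied among the overlapped members. Head to head were 15 members, Mrpl46 and Mrps11 each counted, with a median level of 4.59 TPM. Tail to tail were 7, with a median of 11.8 TPM. The opposite gene lay inside the member in 3 pairs (Mrpl58, Mrps27 and Mrpl12), with 1.13 to 2.91 TPM for the member, and Mrps34 alone lay inside its opposite gene. Levels of 10 TPM or more occurred in 6 of the head-to-head and 4 of the tail-to-tail members. Over all overlapped protein-coding genes the share at 10 TPM was 27.5%, and it was not split by arrangement. Across the 26 members, the shared bases and the member's TPM had a Spearman correlation of 0.41, as a description over genes that share libraries and are not independent replicates. It was 0.68 over the 7 tail-to-tail members and 0.30 over the 15 head-to-head members.

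Other lists of mitochondrial gene expression differed in how level went with overlap. The median of mean levels was 33.6 TPM for the 7 overlapped translation factors and 1.15 TPM for the other 5. For proteins of the mitochondrial ribosome with other names it was 9.56 TPM for 3 overlapped and 4.21 TPM for 3 other genes. For assembly and rRNA factors it was 1.51 TPM for 11 overlapped and 1.14 TPM for 12 other genes. For the tRNA synthetases the order of the medians was turned round, with 1.03 TPM for 7 overlapped and 1.97 TPM for 10 other genes. On the log2(TPM + 0.1) scale these medians were -0.19 ± 0.88 and 0.96 ± 0.25 (SD, n = 4), and their order was not tested. By share of all counts the 7 overlapped synthetases stood higher, at 0.0218% against 0.0179%. Of 12 translation factors 10 were detected, with a median of mean levels of 7.30 TPM, against 2.06 TPM for the 78 members. The highest were the initiation factor Mtif3 at 265 ± 18.8 TPM and the deformylase Pdf at 177 ± 11.2 TPM, both overlapped, and the lowest was the release factor Mtrf1 at 0.187 TPM. Of 6 proteins of the mitochondrial ribosome with other names, all 6 were detected, with Gadd45gip1 at 406 ± 21.3 TPM and Ptcd3 at 10.8 ± 2.26 TPM highest and Aurkaip1 at 3.01 TPM lowest. Assembly and rRNA factors were detected in 14 of 23, from Slirp, an RNA-binding partner of Lrpprc, at 654 ± 55.6 TPM and Ptcd1 at 169 ± 19.5 TPM down to Mterf4 at 0.0649 TPM. Of 17 mitochondrial tRNA synthetases 11 were detected, with Hars2 at 35.1 ± 3.13 TPM and Iars2 at 16.7 ± 2.35 TPM highest and Pars2 at 0.253 TPM lowest. All of these leading genes except Ptcd3 have an opposite-strand exon overlap.

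**Figure D5:**
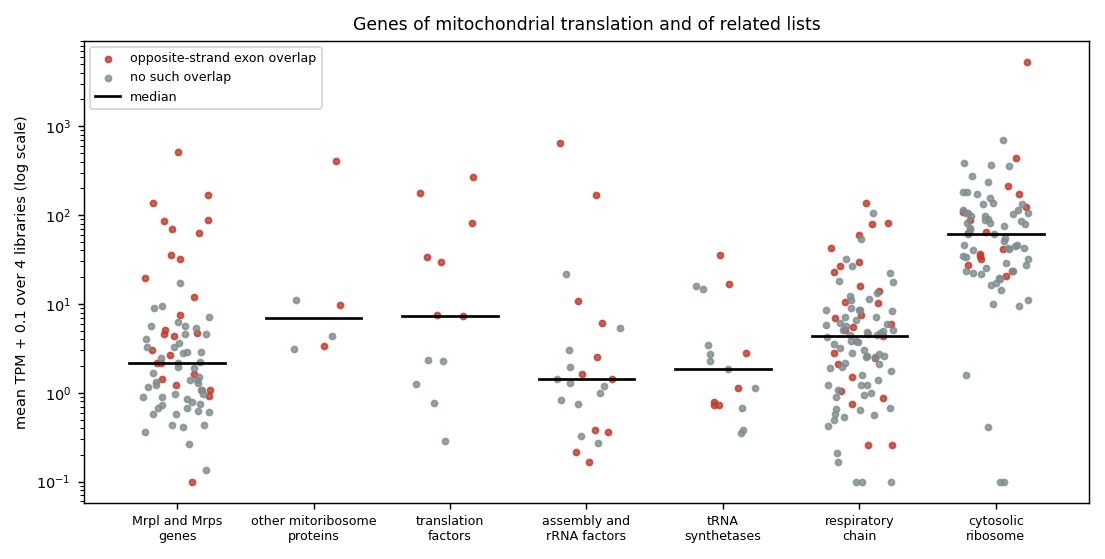
Mean TPM + 0.1 over 4 libraries (log scale) for each gene of 7 lists, with genes that have an opposite-strand exon overlap in red and others in grey, and black bars for list medians. The median of the Mrpl and Mrps genes lies at 2.06 TPM and that of the cytosolic ribosomal protein genes at 60.9 TPM.

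Genes whose products work with the mitochondrial ribosome or resemble it were set beside the members. Of 98 nuclear genes of the respiratory chain, 76 were detected (77.6%), at a median of mean levels of 4.21 TPM, led by Ndufa2 at 137 ± 9.86 TPM and Ndufv3 at 104 ± 7.69 TPM, with Cox4i2, Cox7b2 and Cox8c at 0. Of 79 cytosolic ribosomal protein genes, 76 were detected (96.2%), at a median of 60.9 TPM, with Rps24 at 701 ± 133 TPM and with Rpl10l and Rpl39l at 0. Within the members the medians were 4.76 TPM with an opposite-strand overlap and 1.26 TPM without one. Within the respiratory chain list they were 6.81 TPM for its 27 overlapped genes and 3.44 TPM for its 71 others. Within the cytosolic list they were 64.2 TPM for its 16 overlapped genes and 60.5 TPM for its 63 others. These differences between lists are descriptions and were not tested.

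Few members had enough counts to ask whether the libraries differed beyond counting error. A goodness of fit test in edgeR (Poisson, TMM factors, Benjamini-Hochberg over all genes tested) could be run for 14 of 78 members that passed the filter on low counts. It called 4 of the 14 at an adjusted p under 0.05, against 55.9% of the 5755 genes tested. This sets the spread against counting error alone. With edgeR's trended dispersion in its place 0 of 14 were called, against 0.209% of the genes tested, and 0 of 14 also at an unadjusted p under 0.05. The 4 members called by the Poisson test were Mrps25 (edgeR adjusted p = 4.09e-26), Mrpl38 (3.38e-04), Mrpl47 (0.0135) and Mrpl48 (0.0399). Mrps25 has the highest count of all members, and its replicates ran from 452 to 590 TPM. Mrpl38 had far fewer counts than the others called, and replicate 3 was its low one. Leaving out 1 library in the Poisson test gave 2 to 4 calls, against 37% to 45.3% of the genes tested. Without replicate 2 those left were Mrps25 and Mrpl38, while without replicate 3 they were Mrpl47 and Mrps25.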

How the data were processed

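The authors aligned read pairs with STAR and counted them with featureCounts (version 1.4.6-p4), per the file headers, using exons of GENCODE release 13 on mm10, strand setting 1 and pairs with both ends aligned. The deposited counts are raw, in 1 table per sample. The assay is labelled total RNA-seq, but its linked library protocol is named for poly(A) RNA. The strandedness of the kit is not given in the sources used here, and a fragment on the opposite strand of a gene is not counted for it, so with libraries of the reverse orientation the counts of a gene would come from transcripts of the other strand.

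Symbols were found for 50376 of 50600 identifiers, and gene types came from GENCODE release 21. CPM and TPM were computed with Python 3.11.15, pandas 2.3.3 and numpy 2.4.6, log2 values used a pseudocount of 0.1 TPM, and intervals and permutations used scipy 1.17.1. For the permutation 0.5 was added to all counts. Spread between libraries was tested with edgeR 4.0.16 in R 4.3.3 and, as an alternative, DESeq2 1.42.0 size factors. The test was checked on simulated counts. No library was a copy of another, as chi-square per degree of freedom was 6.29 to 24.8 over library pairs. The 4 samples form 1 group, numbered by the labels as biological replicates 1 to 4.

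The members and lists were chosen with earlier results of these data known. Named were members of known role (such as Mrps12, Mrpl10 and Mrps18a), the 4 highest of each subunit and of those without overlap, the 4 with the highest opposite genes, every member denser than its opposite gene, those at 0, the 4 of highest spread, and the 2 highest and the lowest of each other list. Other names were chosen after their values were seen, and 2 genes that the rules take are not reported here. Totals of 1452053 to 2351916 counts limit the precision for low members, and 18 of 78 had 10 counts or fewer in all.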

Additional observations from a re-analysis of the deposited data

Results flagged for a closer look

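A single library stood far from the other 3 for 5 members and 4 opposite genes by Dixon's ratio (the gap of the most distant library over the range, above the 95% critical value for 4 samples). The 95 quantities tested were genes with more than 10 counts in all, summed levels and shares of the libraries, and differences between lists. All flags fell on genes. Chance flags about 1 quantity in 20. Mrpl27 (0.983) had 92.6, 93.0, 92.6 and 68.8 TPM in replicates 1 to 4, with replicate 4 low. Replicate 4 was also low for Mrpl37 (0.842), at 0.702 TPM against 1.03 to 1.09 TPM, and high for Mrps31 (0.871), at 1.27 TPM against 0.614 to 0.699 TPM. These last rest on 3 to 7 counts a library. Replicate 2 was high for Mrpl39 (0.834), with 14 counts against 3 to 5, and for Mrps18a (0.897), with 10 counts against 0 or 1.

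Among opposite genes, Nr2c2 (0.856) was high in replicate 3, at 27.8 TPM against 17.8 to 19.3 TPM, and Eme1 (0.887) was low in replicate 2, at 50.2 TPM against 73.6 to 76.6 TPM. Gm16279 (0.871) and Ighmbp2 (0.848) were high in replicate 1, at 169 TPM against 134 to 139 TPM and at 3.73 TPM against 2.43 to 2.63 TPM. The ribosomal RNA locus took 16.8% of the counts in replicate 2 and 12.6% in replicate 4, against 6.90% and 3.47% in replicates 1 and 3, and its part in these values was not tested.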

How the results depend on the processing

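The count of 53 detected members became 20 at a threshold of 5 TPM and 43 to 56 under other scalings, without the ribosomal RNA locus or without 1 library. The overlapped minus other difference of 2.31 was 1.70 with a pseudocount of 1 TPM, 1.60 over members at 1 TPM or more only, and 1.53 when any overlap of gene bodies counted, and 2.13 to 2.69 otherwise. The overlapped share of member counts was 89.6% without Mrps25, 93.3% for overlaps of at least 100 bases and 96.6% for gene bodies. Members varying beyond counting error, 4 of 14 in the test described, were 7 of 14 with library totals, against 58.9% of all genes tested. Without the filter they were 23 of 77, against 39.1%. Without 1 library they were 2 to 4, against 37% to 45.3%. By edgeR with its trended dispersion in place of 0 they were 0 of 14, against 0.209%, with 0 also at an unadjusted p under 0.05. With DESeq2 size factors at dispersion 0 they were 4 of 14, against 55.9%. Pairs with the opposite gene denser numbered 11 to 18, those with the member denser 8 to 10, and the large minus small difference was 0.18 to 0.50, under all alternatives run. The number of pairs changed as well. The opposite gene was denser in 11 of 20 pairs for overlaps of at least 100 bases and in 18 of 34 for gene bodies, against 15 of 26. The shares over all genes were not computed under these alternatives. Alternatives without the ribosomal RNA locus, over exon bases not shared on the same strand, without members that share same-strand exons, and for the overlapped share were chosen after seeing the data. Leaving out 1 library moved 24 members by over 1.5 times, each with few counts. The causes were not tested. No paired analysis was possible because the study has 1 group.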
